A study of Homo sapiens with 14 samples.

Results

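SW620-TET2CD cells recovered outside their colonies were set against the cells of the same line recovered inside them, on day 15 of long-term culture (LTC). The comparison rests on 2 bulk RNA-seq libraries of the 14 samples in the series, 1 from each location. Its members are the 9190 genes, of 60624 in the tables, that reached at least 10 TPM in either library. TPM corrects reads for depth and transcript length, so it was used for the filter and for comparing levels between genes. The measure for each gene was the log2 ratio of CPM + 1, outside over inside, where CPM corrects counts for depth alone, with library sizes scaled by TMM factors. The same ratio in SW620-FLAG, also from 1 library per location, served as the contrast. With 1 library per location there was no replicate and no test, so a gene was called when its ratio passed 2-fold in either direction.

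SW620 is a colorectal adenocarcinoma cell line derived from a lymph node metastasis. SW620-TET2CD cells overexpressed the catalytic domain of TET2, and SW620-FLAG cells, which the sample labels name SW620, carried the empty FLAG vector. Cultures were grown to day 15 without passage. According to the study's methods, cells that came off as a suspension with accutase and went through a strainer were taken as outside, and the spheres that stayed on it were taken as inside and then digested with trypsin. Location and handling therefore moved together and cannot be told apart. In bulk RNA, fewer cells of a type and less RNA per cell cannot be told apart either. No source used here says whether SW620-TET2CD was a pool or 1 clone.

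TET2 is a dioxygenase that oxidises 5-methylcytosine in DNA, a step towards removal of the mark, and its catalytic domain carries this activity without the rest of the protein. The methyl mark sits mainly on cytosine in CG pairs, and CG-rich promoters are usually free of it. Colorectal cancer cells keep part of the program of the intestinal epithelium, with nuclear receptors such as HNF4A, junction proteins and brush border proteins. Cells in dense colonies commonly divide less and see less oxygen than cells at an edge.

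The 4 day-15 libraries held 21223051 to 25840563 expected counts, and mitochondrial transcripts took 6.75% to 7.14% of them. Colorectal epithelial markers summed to 6647 TPM inside and 5755 TPM outside in SW620-TET2CD, and none of the 11 was at 0. Fibroblast markers summed to 7.95 and 5.20 TPM, with 4 of 10 at 0 in both libraries, and leukocyte markers to 25.6 and 18.5 TPM, with 6 of 12 at 0. Endothelial markers summed to 5.76 TPM inside and 33.9 TPM outside, 25.1 TPM of which was CLDN5. A further endothelial marker, PECAM1, went the same way at 0.30 TPM inside and 5.06 TPM outside (4 and 200 counts), while ENG was at 3.64 and 3.28 TPM, CDH5 and VWF stayed at 0.42 TPM or less, and KDR, TEK and EMCN were at 0 in both. The labels name each culture by its cell line alone, and which cells held these transcripts in bulk was not tested.

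In SW620-TET2CD, 171 genes were at least 2-fold higher outside the colonies, 1.86% of the 9190, and 133 were at least 2-fold lower, 1.45%. SW620-FLAG gave 17 higher (0.185%) and 6 lower (0.0653%) among the same genes. The standard deviation of the ratios across genes was 0.41 on the log2 scale in SW620-TET2CD and 0.18 in SW620-FLAG, with medians of -0.02 and 0.00. The middle 95% of genes lay between -0.82 and 0.82 in SW620-TET2CD and between -0.35 and 0.31 in SW620-FLAG. At 4-fold, 37 genes were higher and 6 lower outside in SW620-TET2CD, against 1 and 0 in SW620-FLAG. Intervals given below are 95% intervals of the ratio of counts, without the pseudocount, and cover counting error only.

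The filter shaped part of these lists. Of the 9190 members, 8158 reached 10 TPM in both libraries, 645 outside only and 387 inside only. Among the 171 genes higher outside, 118 had passed through the outside library alone and 53 were above the filter in both. Among the 133 lower outside, 65 had passed through the inside library alone. With the filter set in the SW620 library of day 6, which enters none of the ratios, 162 of 8702 genes were higher and 101 lower outside. This alternative was chosen after the data had been seen. That library lacks TET2CD, so genes seen only in SW620-TET2CD cannot pass this filter. At the border of the filter, ZNF616, PFKFB2 and AC004687.1 were just inside at 10.0 TPM in their higher library with ratios of 0.40, 0.31 and 0.31, and SIK2 and SMAD6 (9.99 TPM) and AC015871.8 (9.98 TPM) were just outside with ratios of -0.08, -0.54 and 0.20.

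**Figure D1:**
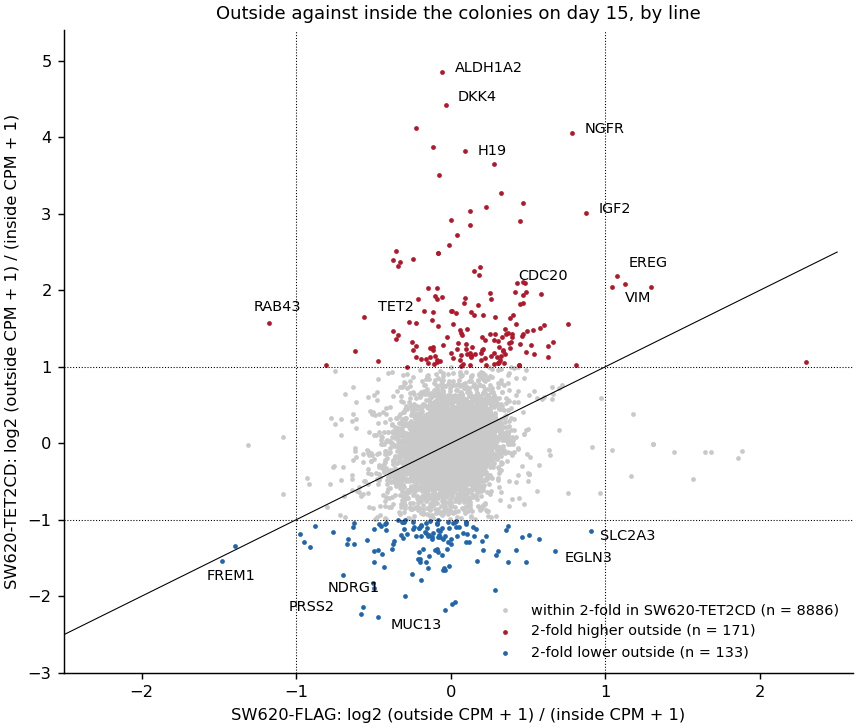
Log2 ratio of CPM + 1, outside over inside the colonies on day 15, for the 9190 members, with SW620-FLAG on the horizontal and SW620-TET2CD on the vertical axis. Each point is 1 gene, dotted lines mark 2-fold, and the solid line marks equal ratios; the points spread further along the vertical axis, and most of the 171 genes higher and 133 genes lower outside in SW620-TET2CD lie within 2-fold in SW620-FLAG.

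TET2 itself (ENSG00000168769, GRCh38 chromosome 4, 105145875 to 105279816, plus strand) was higher outside. It stood at 297 CPM inside and 913 CPM outside in SW620-TET2CD, against 9.20 and 8.40 CPM in SW620-FLAG. The log2 ratio was 1.61 (interval 1.58 to 1.66) in SW620-TET2CD and -0.12 in SW620-FLAG. Reads of the transgene and of the endogenous gene share the catalytic domain and are not separated in a count per gene. The cells outside the colonies thus held more TET2 RNA for the same depth, and whether each cell held more or more cells held it cannot be told apart in bulk. Of the other genes of the methylation machinery, UHRF1, which guides the maintenance methyltransferase, was at 25.4 CPM inside and 53.7 CPM outside with a ratio of 1.05, and DNMT1 at 105 and 143 CPM with 0.45. The other 8 members of that list had ratios between -0.43 and 0.24.

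The highest ratio belonged to ALDH1A2 (ENSG00000128918, chromosome 15, 57953424 to 58497866, minus strand), a retinaldehyde dehydrogenase that makes retinoic acid. In SW620-TET2CD its level was 1.09 TPM inside and 42.0 TPM outside, and at 0.24 and 0.00 TPM in SW620-FLAG. The log2 ratio was 4.85, or 28.8-fold on the CPM + 1 scale. The related ALDH1A3 was also called, at 39.0 CPM inside and 182 CPM outside with a ratio of 2.19. DKK4, a secreted WNT inhibitor that is itself a WNT target, was at 17.4 CPM inside and 393 CPM outside with a ratio of 4.42 (interval 4.35 to 4.65), and at 0.16 and 0.13 CPM in SW620-FLAG. RCSD1, which binds the actin capping protein, followed with 4.12. NGFR, the low-affinity neurotrophin receptor, stood at 13.4 CPM inside and 239 CPM outside with a ratio of 4.05 (interval 3.98 to 4.33). NGFR also went the same way in SW620-FLAG, with a ratio of 0.79.

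H19 (ENSG00000130600, chromosome 11, 1995166 to 2004552, minus strand) had the highest level among the genes past 4-fold. This imprinted long noncoding RNA had 50.9 TPM inside against 785 TPM outside in the SW620-TET2CD libraries, and 0.41 and 0.48 TPM in SW620-FLAG. Its log2 ratio was 3.82 (interval 3.77 to 3.90), or 14.1-fold. IGF2, the imprinted growth factor gene next to it, was at 7.72 TPM inside and 80.2 TPM outside with a ratio of 3.02, and its ratio in SW620-FLAG was 0.88. Of the 20 listed imprinted genes 10 were members, 2 of them higher outside (H19 and IGF2) and 1 lower (PHLDA2, -1.21). Over all members, 1.86% were called higher and 1.45% lower. Of the 2, 1 had passed the filter through the outside library alone. H19, RAB34 and CALML3 were known from earlier results of these data as genes of the single-cell cluster richest in the transgene, so their direction here is no independent evidence. RAB34 was at 7.29 CPM inside and 33.0 CPM outside, and CALML3 at 11.5 and 35.9 CPM. CALML3-AS1 on the other strand had a ratio of 2.40, and in libraries that do not mark strand its reads cannot be told apart from those of CALML3.

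The promoters of ALDH1A2 and H19 are printed because ALDH1A2 had the highest ratio, H19 had the highest TPM outside among the genes past 4-fold, and TET2 acts on CG pairs. Shown are the 250 bases before the transcription start in RefSeq (GRCh38.p14, minus strand, 5′ to 3′), chr15:58065712-58065961 for the first of the 2 listed starts of ALDH1A2 and chr11:2001267-2001516 for H19, with each CG in capitals.
ALDH1A2: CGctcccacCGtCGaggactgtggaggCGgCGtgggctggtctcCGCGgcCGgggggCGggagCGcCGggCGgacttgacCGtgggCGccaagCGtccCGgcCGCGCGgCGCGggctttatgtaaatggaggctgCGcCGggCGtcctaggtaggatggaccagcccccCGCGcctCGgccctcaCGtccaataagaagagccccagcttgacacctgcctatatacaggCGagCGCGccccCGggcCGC
H19: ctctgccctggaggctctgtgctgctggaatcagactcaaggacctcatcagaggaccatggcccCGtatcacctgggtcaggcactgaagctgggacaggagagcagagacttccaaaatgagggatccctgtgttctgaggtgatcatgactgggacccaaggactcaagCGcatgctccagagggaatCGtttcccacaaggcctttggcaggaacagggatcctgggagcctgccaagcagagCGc
The ALDH1A2 stretch held 33 CG pairs and the H19 stretch 4. Both stretches lie inside the gene spans given above, so other starts are possible. Which start these cells used was not tested.

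The other genes of the 15 highest, clone names left out, had ratios between 2.59 and 3.87. PLAT, tissue plasminogen activator, was at 2.38 CPM inside and 48.5 CPM outside (3.87), and ANGPT2, a ligand of the TEK receptor, at 7.20 and 102 CPM (3.64). APOBEC3G, a cytidine deaminase of antiviral defence, had a ratio of 3.15 and was also at 114 TPM in the SW480 library of day 6. CLDN5, a claudin of tight junctions best known from endothelium, went from 1.57 TPM inside to 25.1 TPM outside (3.09). KRT5, a basal keratin, had 1.07 TPM inside and 11.3 TPM outside (3.03), far under its 3081 TPM in SW480. ATP8B2 (3.27), PTGDS (2.85), SLC16A6 (2.73) and IFFO1 (2.59) completed the set. In SW620-FLAG the 15 genes had ratios from -0.22 to 0.88, and none was called.

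**Figure D2:**
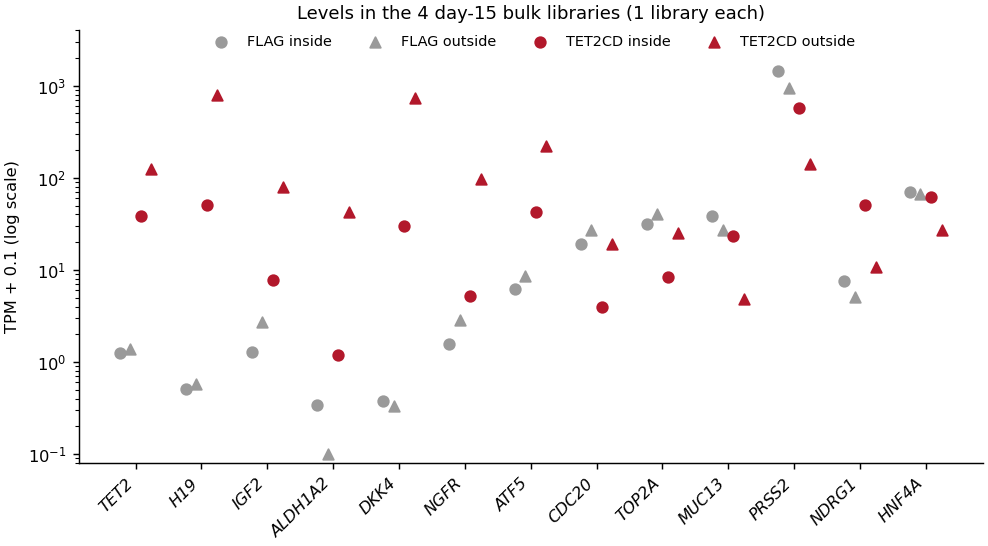
TPM + 0.1 on a log axis for 13 named genes in the 4 day-15 bulk libraries, with circles for inside, triangles for outside, grey for SW620-FLAG and red for SW620-TET2CD, 1 library each. H19, ALDH1A2 and DKK4 are at 0.48 TPM or less in SW620-FLAG and reach 785, 42.0 and 734 TPM outside in SW620-TET2CD, while CDC20 and TOP2A are lowest in SW620-TET2CD inside the colonies.

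Mitotic genes formed the largest group that was higher outside. Of the 18 members among 31 listed, 16 were at least 2-fold higher outside in SW620-TET2CD and none was lower, with a median log2 ratio of 1.37 beside -0.02 over all members. The range was 0.89 to 2.10. Over all members, 1.86% were called higher. In SW620-FLAG the same 18 genes had a median of 0.43, all above 0, and none was called. With the day 6 filter, 27 of 29 mitotic genes were higher outside with a median of 1.40. Of the 16, 12 had passed the 10 TPM filter through the outside library alone.

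CENPF, a kinetochore protein, was at 13.7 CPM inside and 62.2 CPM outside (2.10, interval 2.00 to 2.37). CDC20, the activator of the anaphase-promoting complex, was at 4.62 and 21.2 CPM (1.98), and TOP2A, the topoisomerase that untangles chromosomes, at 29.2 and 106 CPM (1.82, interval 1.73 to 1.99). The kinesin KIF2C (1.83), the spindle protein NUSAP1 (1.67), the checkpoint kinase BUB1B (1.5) and the mitotic kinase CDK1 (1.43) came next. PTTG1 (0.89) and MYBL2 (0.99) were the members under 2-fold.

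For 13 of the 18 mitotic members the filter had been passed through the outside library alone, so their inside level was under 10 TPM by selection. SW620-TET2CD inside the colonies had the lowest CPM of the 4 day-15 libraries for 18 of 18 mitotic genes, and it was the lowest for 2107 of all 9190 members. CDC20 was at 3.84 TPM there, at 19.2 TPM in SW620-TET2CD outside, and at 19.1 and 27.0 TPM in SW620-FLAG inside and outside. Relative to SW620-FLAG in the same location, the mitotic genes had a median log2 ratio of -1.48 inside and -0.55 outside, lower than the control line in both. In the SW620 library of day 6, CDC20 was at 84.0 TPM and TOP2A at 115 TPM, above the day-15 values of both lines. Of 22 genes of DNA replication, 4 were higher outside and none lower, beside 1.86% and 1.45% of all members. Their median was 0.56 (0.23 in SW620-FLAG). The 4 were CDC45 (1.39), RRM2 (1.35), TK1 (1.21) and UHRF1 (1.05), and each had passed the filter through the outside library alone. With the day 6 filter 6 of 30 were higher.

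Promoters of mitotic genes often hold a short element named CHR, with the letters TTTGAA or TTTAAA, and a CCAAT box. The 300-base promoters of RefSeq (250 before and 50 after the start), read on both strands, were at hand for 13 of the 18 mitotic members. TTTGAA or TTTAAA was found in 11 of them (84.6%), against 13.9% of 7137 members with a promoter and 24.3% of all 27305 promoters. CCAAT was found in 10 of the 13 (76.9%), against 37.1% of members. Of the 19 replication genes with a promoter, 3 held TTTGAA or TTTAAA and 13 held CCAAT (68.4%), and CCAAT was also in 15 of 18 cholesterol promoters (83.3%). A match of letters does not show binding. The promoters of CCNB1, CDC20 and TOP2A are printed because these genes were all higher outside, with both forms of CHR and the CCAAT box (either strand) in capitals, as the 250 bases before the start at chr5:69166900-69167149 (plus strand), chr1:43358731-43358980 (plus strand) and chr17:40417897-40418146 (minus strand) of GRCh38.p14, 5′ to 3′.
CCNB1: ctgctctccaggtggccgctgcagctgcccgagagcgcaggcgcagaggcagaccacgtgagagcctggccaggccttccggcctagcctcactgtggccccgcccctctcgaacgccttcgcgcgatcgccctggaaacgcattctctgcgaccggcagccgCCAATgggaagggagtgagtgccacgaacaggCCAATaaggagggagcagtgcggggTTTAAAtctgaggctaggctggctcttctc
CDC20: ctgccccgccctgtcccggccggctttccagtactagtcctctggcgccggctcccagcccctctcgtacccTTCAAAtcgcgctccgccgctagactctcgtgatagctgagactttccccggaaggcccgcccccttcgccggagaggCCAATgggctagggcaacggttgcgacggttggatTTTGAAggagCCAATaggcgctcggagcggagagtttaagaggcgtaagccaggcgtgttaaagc
TOP2A: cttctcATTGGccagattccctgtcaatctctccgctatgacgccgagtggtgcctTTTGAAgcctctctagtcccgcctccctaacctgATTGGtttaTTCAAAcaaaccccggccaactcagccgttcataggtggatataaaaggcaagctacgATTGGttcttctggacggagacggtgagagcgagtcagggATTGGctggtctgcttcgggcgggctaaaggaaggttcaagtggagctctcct
In these stretches CCNB1 held 1 TTTAAA, and CDC20 and TOP2A each held 2 TTTGAA. CCNB1, the cyclin that activates CDK1, was at 17.3 CPM inside and 43.5 CPM outside in SW620-TET2CD (1.29).

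Genes of antigen presentation were in part higher outside. Of 15 members, 4 were called higher and none lower, with a median of 0.26 (0.01 in SW620-FLAG). Over all members, 1.86% were called higher. PSMB9, an immunoproteasome subunit, had a ratio of 1.38, HLA-B of 1.24, HLA-F of 1.22 and the peptide transporter TAP1 of 1.04. HLA-B was at 67.7 CPM inside and 161 CPM outside. HLA genes are close copies of each other, so the split of reads between them is uncertain. PSMB9, HLA-F and TAP1 had passed the filter through the outside library alone, and with the day 6 filter 1 of 12 was higher. Interferon-stimulated genes had 8 members, of which only IFITM3 was called (1.15), and ISG15 had -0.76. TNFAIP2, an NF-kB target, was higher outside at 5.77 and 23.2 CPM (1.84), and CXCL16 lower at 21.1 and 8.56 CPM (-1.21).

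Single genes of other signalling groups passed 2-fold. EREG, a ligand of the EGF receptor, was at 12.1 CPM inside and 58.5 CPM outside (2.18), and its ratio in SW620-FLAG was 1.07. ERRFI1, an inhibitor of the same receptor, was lower outside at 254 and 106 CPM (-1.26). ATF5, a transcription factor of the stress response, was at 51.2 CPM inside and 247 CPM outside (2.25). The other 19 members of that list stayed between -0.72 and 0.86. Among 23 WNT targets and feedback genes 2 were higher and 1 was lower outside with a median of -0.11. Over all members, 1.86% were called higher and 1.45% lower. With the day 6 filter none of 22 was higher, because the 2 had not reached 10 TPM in that library, which lacks TET2CD. NKD1, a WNT feedback inhibitor, was at 3157 CPM inside and 5434 CPM outside (0.78). Among 23 AP-1 and immediate early genes ATF3 was lower, from 204 CPM inside to 66.7 CPM outside (-1.60), and the list median was -0.10. Of 18 TGF-beta and BMP genes 1 was called, BMP7, which was lower outside (-1.28).

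Mesenchymal markers did not share a direction. Of 14 members, 3 were higher outside (VIM, COL6A1 and LGALS1) and 3 lower (ITGA5, TGFBI and TNC), with a median of 0.13. Over all members, 1.86% were called higher and 1.45% lower. VIM, an intermediate filament protein, had the highest ratio of the list, 2.05, beside 1.04 in SW620-FLAG. LGALS1, a galectin, was at 117 TPM inside and 350 TPM outside (1.43), with 0.47 in SW620-FLAG. COL6A1, a collagen chain, had a ratio of 1.45. TGFBI, a matrix protein, was at 348 CPM inside and 159 CPM outside (-1.12). Among 9 keratins, KRT5, KRT7 (1.5) and KRT81 (1.16) were higher outside, while KRT8 (-0.31) and KRT19 (-0.82), the keratins of simple epithelium, were under 2-fold on the other side. Of the 3 keratins higher outside, 2 had passed the filter through the outside library alone, and with the day 6 filter 1 of 6 keratins was higher. KRT8, at 2541 TPM inside and 2277 TPM outside, had the highest TPM of the epithelial markers in these lists after KRT18.

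The deepest ratio was that of MUC13 (ENSG00000173702, chromosome 3, 124905442 to 124953819, minus strand), a mucin of the apical membrane of enterocytes. Its level in SW620-TET2CD was 23.2 TPM inside and 4.75 TPM outside, and at 38.2 and 26.8 TPM in SW620-FLAG. Its log2 ratio was -2.27 (interval -2.59 to -2.19), or 4.83-fold lower outside, and -0.47 in SW620-FLAG. Its promoter is printed as the case with the deepest ratio, again as the 250 bases before the start (chr3:124934752-124935001 of GRCh38.p14, minus strand, 5′ to 3′) with each CG in capitals.
MUC13: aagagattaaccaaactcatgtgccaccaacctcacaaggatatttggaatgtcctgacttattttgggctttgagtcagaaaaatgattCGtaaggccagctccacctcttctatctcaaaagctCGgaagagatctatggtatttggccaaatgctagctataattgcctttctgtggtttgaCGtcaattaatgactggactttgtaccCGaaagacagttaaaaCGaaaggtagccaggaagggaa
The stretch held 5 CG pairs and also lies inside the gene span given above. The list of intestinal differentiation, MUC13 included, had 3 of 8 members called lower, where 1.45% of all members were. Its median was -0.70 (-0.04 in SW620-FLAG). Of the 3, 2 had passed the filter through the inside library alone, and with the day 6 filter 4 of 9 were lower with a median of -0.90. Besides MUC13 these were CDHR2 and CEACAM1. CDHR2, a protocadherin of the brush border, was at 75.5 CPM inside and 23.7 CPM outside (-1.63), and CEACAM1 had -1.24. TFF2, a trefoil peptide, was called higher (1.23) at 4.10 TPM inside and 14.9 TPM outside.

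Of 10 transcription and splicing factors that hold the epithelial state, 4 were called lower outside and none higher. Among all members, 1.45% were called lower and 54.4% were below 0. The 10 ratios ran from -1.20 to -0.41 with a median of -0.59 (-0.08 in SW620-FLAG), and with the day 6 filter 3 of 8 were lower. Among the 4 past 2-fold were HNF4A, ELF3 and KLF4. HNF4A was at 166 CPM inside and 71.6 CPM outside (-1.20, interval -1.29 to -1.13), and at 189 and 179 CPM in SW620-FLAG. ELF3 was at 123 and 53.9 CPM (-1.17). CDX2 had equal ratios in the lines, -0.69 in each. RBM47, an RNA-binding protein of epithelia, was among the 15 lowest at 43.4 CPM inside and 13.1 CPM outside (-1.66).

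Adhesion genes had mostly small ratios. Of 21 members for adherens and tight junctions, 15 were below 0 with a median of -0.36. SW620-FLAG had 17 of the same 21 below 0 with a median of -0.09. Over all members, 54.4% were below 0 in SW620-TET2CD and 50.2% in SW620-FLAG. In SW620-TET2CD 1 was called lower (CDH1) and 1 higher (CGNL1, 1.14), beside 1.45% and 1.86% of all members. All 7 desmosomal members were below 0, between -0.59 and -0.12. Stem cell markers of the crypt had a median of -0.70, with -0.21 in SW620-FLAG. LGR5, the receptor for R-spondins, was at 38.3 CPM inside and 20.4 CPM outside (-0.88), and ALCAM was the 1 called (-1.21), having passed the filter through the inside library alone. With the day 6 filter none of 10 was called.

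Trypsinogens, the inactive forms of digestive proteases, were lower outside. PRSS2 (ENSG00000275896, chromosome 7, 142760398 to 142774564, plus strand) had 579 TPM inside against 140 TPM outside in SW620-TET2CD (-2.14) and had a ratio of -0.57 in SW620-FLAG. PRSS1 had -1.40 and PRSS3 -1.22, beside 0.42 and 0.04 in SW620-FLAG. The 3 are near-identical copies, so the split of reads between them is uncertain. The list of 9 trypsinogens and other serine proteases or inhibitors had a median of -0.94, beside -0.09 in SW620-FLAG. The study's methods give the trypsin digestion of inside cells without a difference between the lines. The part of this handling in these ratios was not tested.

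**Figure D3:**
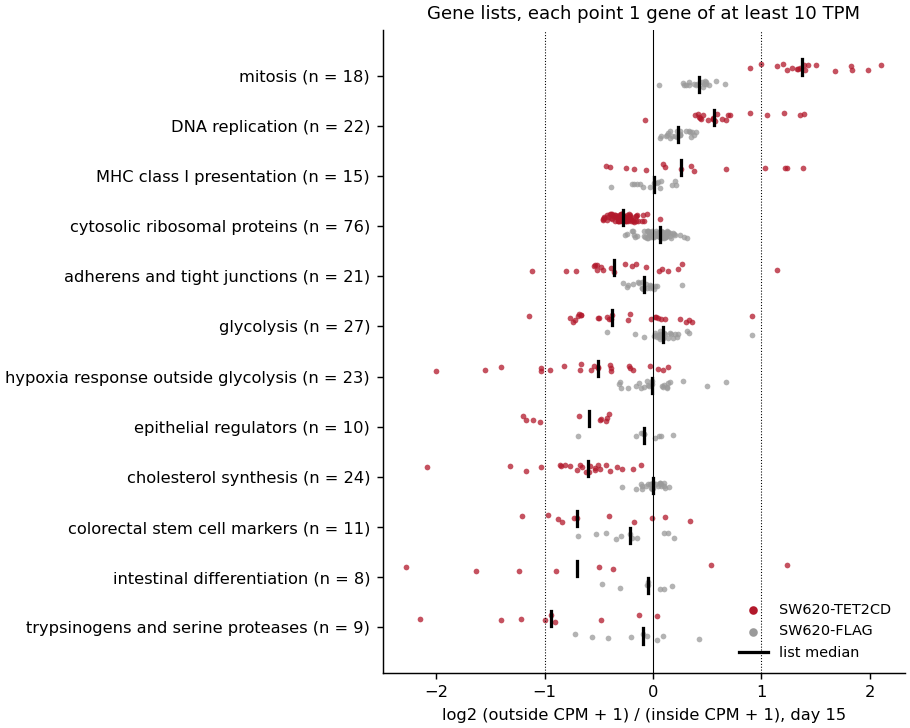
Log2 ratio of CPM + 1, outside over inside, for the members of 12 gene lists, with 1 point per gene in SW620-TET2CD (red) and SW620-FLAG (grey) and a black bar at each list's median. The mitotic genes lie between 0.89 and 2.10 in SW620-TET2CD, the cholesterol genes all below 0, and the SW620-FLAG medians stay between -0.21 and 0.43.

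Of 23 hypoxia response genes outside glycolysis, 5 were called lower outside and none higher, 20 were below 0, and the median was -0.51, against -0.01 in SW620-FLAG. Over all members, 1.45% were called lower and 54.4% were below 0 in SW620-TET2CD. Of the 5, 2 had passed the filter through the inside library alone, and with the day 6 filter 2 of 17 were lower. NDRG1 was at 50.4 TPM inside and 10.8 TPM outside (-2.0). CA9, the carbonic anhydrase used as a hypoxia marker, was at 49.3 CPM inside and 16.2 CPM outside (-1.55, interval -1.77 to -1.44), and the oxygen sensor EGLN3 at 34.3 and 12.3 CPM (-1.41). ADM (-1.04) and AK4 (-1.03) were the remaining 2. MIR210HG, the host transcript of the hypoxia-linked miR-210, had a ratio of -1.51.

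In SW620-TET2CD these hypoxia genes were at their median above SW620-FLAG in both locations, and further above inside. Their median log2 ratio over SW620-FLAG in the same location was 0.86 inside and 0.30 outside. SW620-TET2CD inside was the highest of the 4 day-15 libraries for 19 of 23 hypoxia genes, against 2775 of all 9190 members. SW620-TET2CD outside was the lowest for 5 of the 23, against 2942 of all 9190. NDRG1 was at 7.54 and 5.04 TPM in SW620-FLAG. Glycolytic genes had a median of -0.37 (0.09 in SW620-FLAG) and 1 of 27 called, the glucose transporter SLC2A3, at 146 CPM inside and 65.4 CPM outside (-1.14). HK1, a hexokinase, was on the other side at 77.6 and 147 CPM (0.91). The letters ACGTG or GCGTG, the core of the hypoxia response element, were in 15 of 18 hypoxia promoters at hand (83.3%), in 15 of 18 cholesterol promoters (83.3%), in 15 of 19 replication promoters (78.9%), in 10 of 13 mitotic promoters (76.9%) and in 66.1% of members' promoters.

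Of 24 cholesterol genes, 4 were called lower outside and none higher. Over all members, 1.45% were called lower and 54.4% were below 0. All 24 ratios were below 0, between -2.08 and -0.11, with a median of -0.60 against 0.00 in SW620-FLAG. Among the 4, the regulator INSIG1 was at 85.9 CPM inside and 33.9 CPM outside (-1.31, interval -1.46 to -1.22), and at 50.3 CPM in both SW620-FLAG libraries. HMGCS1, an early enzyme of the pathway, was at 185 and 89.6 CPM (-1.03). SW620-TET2CD outside was the lowest of the 4 libraries for 22 of 24 genes, against 2942 of all 9190 members, and SW620-TET2CD inside was the highest for 18 of 24, against 2775. Fatty acid synthesis had a median of -0.10 and no call among 14 members.

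Ribosomal protein genes had small and uniform ratios. Of 76, 75 were below 0, where 54.4% of all members were. The range was -0.46 to 0.07, the median -0.28 (0.06 in SW620-FLAG), and none was called. SW620-TET2CD outside was the lowest of the 4 libraries for 75 of the 76, against 2942 of all 9190 members. Ribosomal protein genes are short and have many pseudogene copies, so part of their reads may be assigned among copies. The 58 nuclear genes of oxidative phosphorylation had a median of -0.11 and the 13 mitochondrial ones of 0.01, with no call in either. Other lists without a call were YAP targets (median 0.12), p53 targets (-0.20), ribosome biogenesis (-0.08), heat shock proteins (0.04), autophagy and lysosome (-0.05), ephrins (-0.69), clock genes (-0.32) and colorectal epithelial markers (-0.60). Lists with 1 member and no call were the EMT transcription factors (SNAI1, -0.71), the TET2 targets named by the study (VEGFA, -0.95) and the leukocyte markers (LYZ, -0.41).

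Other members of the 15 lowest, clone names left out, covered several functions. SLC39A5, a zinc transporter of enterocytes, was at 23.3 CPM inside and 4.19 CPM outside (-2.23). GCNT3, which builds mucin glycans, had -1.90, AKR1C3, a steroid reductase, -1.71, GPER1, a membrane estrogen receptor, -1.79, and CAMK2N1, an inhibitor of CaM kinase, -1.63. C6orf223 (-2.10), DIO3OS (-1.83), NPDC1 (-1.72) and BAIAP2L2 (-1.66) were also in the set, as was H4C12 (-1.91). H4C12 is a replication-dependent histone gene with near-identical copies, listed at 17.4 TPM inside and 0.00 TPM outside, and its value is uncertain.

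Against SW620-FLAG, 160 genes had a ratio at least 2-fold above that of the control line (1.74%) and 127 a ratio at least 2-fold below it (1.38%). The rankings that follow leave out genes with clone names. The 10 highest differences were those of ALDH1A2 (4.91), DKK4 (4.45), RCSD1 (4.34), PLAT (3.98), H19 (3.73), ANGPT2 (3.37), NGFR (3.27), ATP8B2 (2.94), KRT5 (2.91) and GPAT2 (2.87). GPAT2, a glycerol phosphate acyltransferase of the mitochondria, was at 5.58 CPM inside and 36.5 CPM outside in SW620-TET2CD (2.51) and had -0.36 in SW620-FLAG. Among the 10 lowest were H4C12 (-2.20), C6orf223 (-2.11), EGLN3 (-2.08), SLC2A3 (-2.05), RPS26P19 (-2.04), RN7SK (-2.03), RNVU1-7 (-1.98), TSPAN8 (-1.92) and PRSS1 (-1.82). RN7SK and RNVU1-7, small nuclear RNAs that the libraries capture poorly, were there through SW620-FLAG, with ratios of 1.57 and 1.89 in that line and -0.46 and -0.10 in SW620-TET2CD.

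Of the 17 genes higher outside in SW620-FLAG, 5 were also higher in SW620-TET2CD (29.4%), where 1.86% of all members were, and of its 6 lower genes 2 were also lower, where 1.45% of all members were. The 5 are among the 171 genes higher in SW620-TET2CD and the 2 among its 133 lower. The named genes among the 5 were EREG, TGM2, VIM and SMIM11B, the last with a near-identical copy that leaves its reads uncertain, and the 2 were FREM1 and the unnamed CU633967.1. TGM2, a transglutaminase, had ratios of 2.08 and 1.13 in SW620-TET2CD and SW620-FLAG. FREM1, a basement membrane protein, had -1.54 and -1.48. Below the 2-fold limit the lines shared the sign more often than not, since 116 of the 171 genes higher in SW620-TET2CD had a ratio above 0 in SW620-FLAG, where 49% of all members did. For the 133 lower genes, 96 were below 0 in SW620-FLAG, against 50.2% of members. Their median ratios in SW620-FLAG were 0.15 and -0.14. The choice of these genes by location raises how often a SW620-TET2CD library is the extreme of the 4. SW620-TET2CD outside was the highest for 129 of the 171 (2488 of all 9190 members) and SW620-TET2CD inside the lowest for 76 (2107 of all). For the 133, outside was the lowest in 117 (2942 of all) and inside the highest in 68 (2775 of all).

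The single-cell libraries gave a readout that did not enter the ratios. They hold the whole cultures of both lines on days 6, 9, 12 and 15, with 1 library per line and day, and carry no label of location. A cell with at least 3 TET2 UMIs (molecules counted once) was taken as TET2-high. In SW620-TET2CD these were 12.9% of kept cells on day 6, 9.23% on day 9, 6.86% on day 12 and 4.18% on day 15, and in SW620-FLAG 1 cell in all 4 libraries. On day 15 there were 246 TET2-high cells with a median of 11132 UMIs and 4874 cells without a TET2 UMI with a median of 8042. Any 2 libraries shared at most 0.334% of the barcodes of the smaller one.

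Genes higher outside in bulk were often higher in TET2-high cells. Of 167 matched genes without TET2 itself, 69 were at least 2-fold higher in the summed TET2-high cells of day 15 than in cells without a TET2 UMI (41.3%), and none was 2-fold lower. Over all 8800 members matched, 141 were 2-fold higher (1.6%) and 37 lower (0.42%). On day 6 the counts were 67 of 167, against 137 of 8800 (1.56%) with 53 lower (0.602%). Both days named 52 of the genes. Of the genes higher outside, 118 had passed the filter through the outside library alone, which also held more TET2 RNA. The shares are therefore not from like sets of genes. Without H19, RAB34 and CALML3, which were known from single cells rich in the transgene, the day 15 count was 66 of 164 (40.2%), a setting chosen after the data had been seen. ALDH1A2 was at 18.1 CPM in TET2-high cells and 1.44 CPM in cells without a TET2 UMI on day 15 (50 and 59 UMIs), and NGFR at 18.4 and 3.73 CPM (51 and 153 UMIs). H19 was at 211 and 9.81 CPM (584 and 402 UMIs), a value that restates how it was known. DKK4 had a log2 ratio of 3.38, CLDN5 of 3.01 and SULT1C4 of 3.10.

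Of the 18 mitotic genes, 1 (MYBL2) was 2-fold higher in TET2-high cells on day 15. The shares were 41.3% of the genes higher outside and 1.6% of all members. The median log2 ratio of the mitotic genes between the cell classes was 0.37, beside 0.86 for genes higher outside and 0.11 over all members. CDC20 lay under this median, at 13.7 CPM in TET2-high cells and 13.8 CPM in the others. The DNA replication genes had a median of 0.80 between the same classes, near that of the genes higher outside. Of these 22, 3 were 2-fold higher in TET2-high cells. Of the 20 genes higher outside in the mitosis and replication lists, 1 was 2-fold higher in TET2-high cells, and 79 of the genes higher outside were in neither those lists nor that class. Genes lower outside in bulk had a median of -0.47 in TET2-high cells on day 15. Of 131, 16 were 2-fold lower (12.2%) and 3 higher, beside 0.42% and 1.6% of all members. SLC39A5 (-1.27) and NPDC1 (-1.34) were among the 16, and NDRG1 (-0.56) was not.

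**Figure D4:**
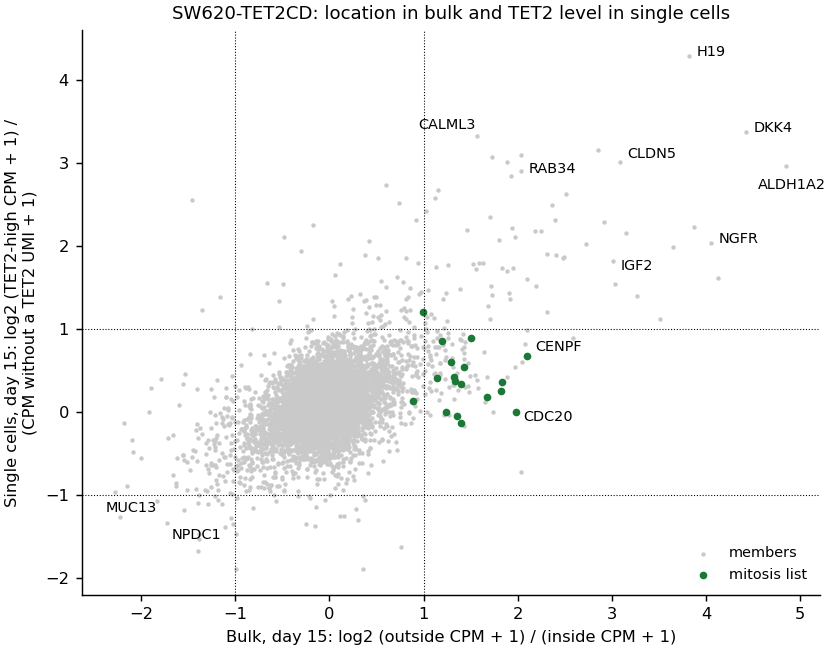
Log2 ratio of single-cell CPM + 1 on day 15 (TET2-high cells over cells without a TET2 UMI, SW620-TET2CD) against the bulk log2 ratio of CPM + 1, outside over inside, with 1 point per member and TET2 left out. H19, DKK4 and ALDH1A2 are high on both axes, and the mitotic genes (green), which lie at 0.89 or more in bulk, are mostly within 2-fold between the cell classes.

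Across culture days the groups ran apart. Between day 6 and day 15 in SW620-TET2CD, 1177 of 8801 members were 2-fold higher on day 15 (13.4%) and 1046 lower (11.9%). Of the 131 genes lower outside, 55 were 2-fold higher on day 15 (42%) and 4 lower. Of the 168 genes higher outside, 31 were higher (18.5%) and 53 lower (31.5%). In SW620-FLAG, 46 of the 131 genes lower outside were higher on day 15 (35.1%), against 789 of 8801 members (8.96%), and 54 of the 168 genes higher outside were lower (32.1%), against 1218 of 8801 (13.8%). All 18 mitotic genes were 2-fold lower on day 15 in SW620-TET2CD, with a median of -2.45, and 16 of 23 hypoxia genes were 2-fold higher, with a median of 2.00. The single-cell samples carry no label of location, so these values describe whole cultures.

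H19 was seen mainly in SW620-TET2CD. It was at 3.68, 11.1, 10.5 and 30.2 CPM in SW620-TET2CD on days 6, 9, 12 and 15, and at 0.30 CPM or less in SW620-FLAG. TET2 was at 107, 59.5, 40.2 and 41.6 CPM in the same libraries, lower on day 15 than on day 6, while H19 was higher. ALDH1A2 was at 5.22, 4.12, 1.76 and 3.10 CPM in SW620-TET2CD and at 1.04 CPM or less in SW620-FLAG. NDRG1 was at 0.62, 1.34, 28.6 and 34.5 CPM in SW620-TET2CD and reached 32.3 CPM in SW620-FLAG on day 15. MUC13 stood at 5.05 CPM on day 6 and 12.5 CPM on day 15. With 1 library per line and day these differences have no replicate check.

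**Figure D5:**
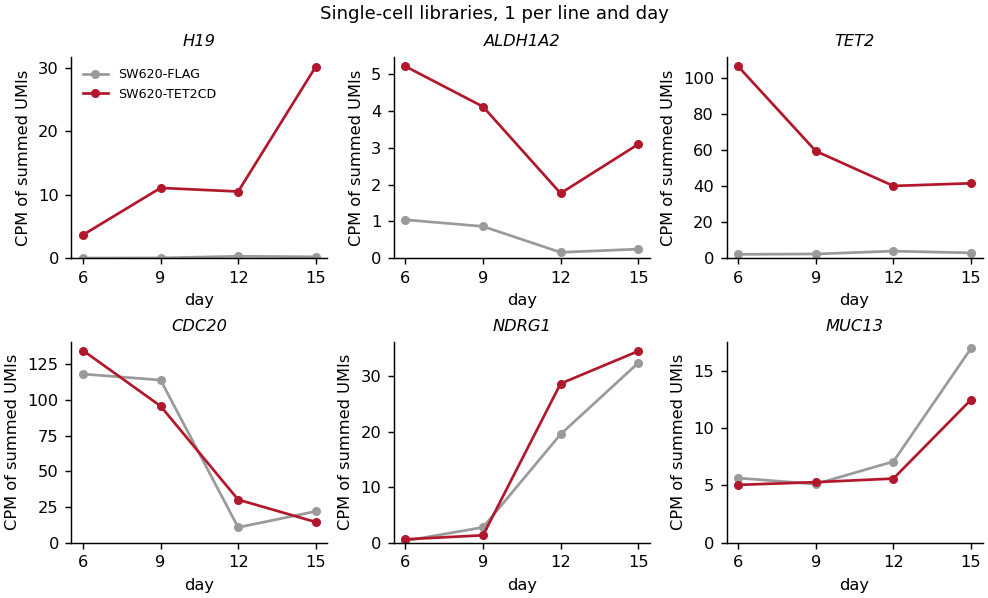
CPM of summed UMIs by culture day for 6 genes in the single-cell libraries, with SW620-FLAG in grey and SW620-TET2CD in red, 1 library per point and separate vertical axes from 0. H19 reaches 30.2 CPM in SW620-TET2CD and stays at 0.30 CPM or less in SW620-FLAG, CDC20 declines from 135 to 14.5 CPM and NDRG1 climbs from 0.62 to 34.5 CPM there, and both of these do likewise in SW620-FLAG.

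Promoters of the called genes had fewer CG pairs than those of other members. The median number of CG in 300 bases was 22.0 for 120 genes higher outside and 12.0 for 91 genes lower outside, against 27.0 for the 7137 members with a promoter. Fewer than 10 CG were found in 23.3% of the former, 41.8% of the latter and 7.8% of members. The contrast holds against members only, which had been chosen by their level. Over all RefSeq promoters the median lay between those of the genes lower and higher outside. The share with fewer than 10 CG was larger there than in either called group. Many called genes had passed the filter through a single library, and its part in the contrast was not tested. Among the 15 highest genes 6 had a promoter at hand, from 2 CG (ATP8B2) to 41 (ALDH1A2). Among the 15 lowest 10 had one, from 0 CG (AKR1C3) to 46 (DIO3OS). No measurement of methylation was used here.

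Transcript length moved little with the ratios. The median log2 ratio in SW620-TET2CD was -0.08 over the 3064 shortest members, -0.02 over the 3062 of middle length and 0.02 over the 3064 longest. Of 352 long noncoding RNAs among the members 13 were higher and 13 lower outside, beside 171 and 133 of all 9190 members (1.86% and 1.45%). Set against all 6 bulk libraries on the TPM + 1 scale, SW620-TET2CD outside was the highest by at least 2-fold for 71 members. SW620-TET2CD inside was so for 43, SW480 of day 6 for 347 and SW620 of day 6 for 48. The counts for SW620-FLAG inside and outside were 3 and 2. The filter limits these counts, since members had to reach 10 TPM in a SW620-TET2CD library. SW620-TET2CD outside was the lowest by 2-fold for 9 and inside for 43, against 11 and 5 in SW620-FLAG.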

How the data were processed

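Bulk RNA-seq libraries were made by the authors from total RNA with a TruSeq kit that does not mark strand. Per the file headers, the deposited tables were written by RSEM and give for each gene an expected count, TPM and FPKM (not used here). The submitters' processing notes name Bowtie, RSEM and the build mm10 for these tables, while the gene identifiers in them are human Ensembl identifiers with gene symbols. No source used here says how these go together. The deposited single-cell matrices hold UMI counts from Cell Ranger 4.0 against GRCh38.

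Expected counts were rounded, 45 duplicate identifiers for the pseudoautosomal region were dropped, and library sizes were scaled by TMM factors over the 4 day-15 libraries (0.988 to 1.03) with edgeR 4.0.16 in R 4.3.3. Ratios are log2 of CPM + 1. Genes needed 10 TPM in either SW620-TET2CD library. No test was made, because each condition had 1 library, and "called" means past 2-fold. On counts simulated with the same library sizes, with 4-fold changes and counting error only, the script found most of the changes put in. The simulation had no variation between libraries, so it does not bear on the lack of replicates. Count intervals are exact (Clopper-Pearson) at 95% and cover counting error only. The depth of 21223051 to 25840563 expected counts makes 3 counts worth 0.116 to 0.141 CPM. The members and the 47 gene lists were chosen with earlier results of these data known. Named are TET2, the 15 highest and 15 lowest ratios and the 10 highest and 10 lowest differences between lines among genes with a symbol (clone names left out), up to 5 members of each list with the largest ratios and those whose role is explained, and the 3 genes on either side of the filter. ALDH1A3, CALML3-AS1, SULT1C4, TGM2, FREM1, SMIM11B, CU633967.1, RAB43 and the endothelial markers under the filter were named after their values were seen. A few genes that the rule names are not reported here.

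Kept were barcodes showing between 200 and 4500 genes, between 1000 and 20000 UMIs, and a mitochondrial share no higher than 10%, the limits that the study states, and doublets were not called. These limits left 48282 of 67056 barcodes, more cells than the study states it kept. UMIs were summed per library or per class of cells (at least 3 TET2 UMIs, or none) and scaled to CPM. Gene positions come from GENCODE release 44 of GRCh38, by Ensembl identifier (60370 of 60624 found), and promoters from RefSeq on GRCh38.p14. Python 3.11.15, numpy 2.4.6, pandas 2.3.3, scipy 1.17.1 and matplotlib 3.10.9 were used. Alternatives were other scalings (DESeq2 1.42.0 size factors among them), TPM + 1, other pseudocounts and other filters. SW480 and SW620 bulk libraries of day 6 gave values only.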

Additional observations from a re-analysis of the deposited data

Results flagged for a closer look

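With 1 library per location no group was large enough to look for a library far from the others. Listed here are the named genes past 2-fold in SW620-TET2CD whose SW620-FLAG ratio lay on the other side of 0 by at least 0.3. The difference between the lines was not tested, since each line has 1 library per location.

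Lower outside in SW620-TET2CD and higher in SW620-FLAG were EGLN3 (log2 ratios -1.41 and 0.68), PRSS1 (-1.40 and 0.42), SLC2A3 (-1.14 and 0.91), TNC (-1.08 and 0.37), TSPAN8 (-1.55 and 0.37) and the ribosomal protein pseudogene RPS26P19 (-1.55 and 0.49). Higher outside in SW620-TET2CD and lower in SW620-FLAG were GPAT2 (2.51 and -0.36) and RAB43 (1.57 and -1.18). EGLN3 and SLC2A3 are both known targets of hypoxia-inducible factors. RAB43 overlaps a readthrough transcript, and in SW620-FLAG its TPM moved less than its CPM, from 17.2 inside to 14.2 outside. PRSS1 and RPS26P19 have near-identical copies, so their reads may be split among copies.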

How the results depend on the processing

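No paired analysis was possible because each condition has 1 library, and for the same reason no replicate could be left out. The counts were 171 higher and 133 lower outside in SW620-TET2CD, 17 and 6 in SW620-FLAG, and 160 above and 127 below the SW620-FLAG ratio. Total counts, upper-quartile or DESeq2 size factors, TMM over 6 libraries and totals without mitochondrial genes kept all 6 counts within 1.5 times, as did a filter of 10 TPM in any day-15 library.

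TPM + 1 gave 39 and 34 in SW620-FLAG and 262 and 192 for the difference. A pseudocount of 0.1 gave 32 and 15 in SW620-FLAG. A pseudocount of 5 gave 77 lower in SW620-TET2CD, 7 and 2 in SW620-FLAG, and 98 and 72 for the difference. A filter of 1 TPM (16524 genes) gave 531 and 247, 33 and 22, and 525 and 258. Without a filter (28921 genes) the counts were 577 and 262, 42 and 31, and 601 and 294. At 30 TPM (4840 genes) they were 55 and 60, 9 and 0, and 58 and 61. The filter in SW620 of day 6, added after the data had been seen, gave 2 lower in SW620-FLAG and 110 above the SW620-FLAG ratio in place of 160. The cause of these moves was not tested. Filters moved the share of higher among called genes in SW620-TET2CD from 56.2% to between 47.8% and 68.8%.

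No called gene that the text could name changed direction under another scaling or pseudocount. Of 110 such genes past 2-fold, 26 dropped under it with a pseudocount of 5 and 16 with TPM + 1. Of 591 list medians under alternatives, 60 moved by more than the spread within the list, and among the 20 lists with a median of at least 0.3 in size 4 medians turned sign, all in lists with 1 member at 10 TPM. Setting the TET2-high limit to 1 or 5 UMIs, using every barcode, or leaving out H19, RAB34 and CALML3, all chosen after the data had been seen, left the count of 69 within 1.5 times. All ratios rest on 1 library per location, and low genes such as H4C12 rest on few counts.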
